A study of Bos grunniens with 18 samples.

Results

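The genes described here encode enzymes that remove superoxide and peroxides: the superoxide dismutases SOD1 and SOD2, catalase (CAT), the peroxiredoxins PRDX1 to PRDX6, and thioredoxin reductase 1 (TXNRD1), which keeps the thioredoxin system working. They were chosen by name, as the rows of the deposited blood expression table whose gene name is 1 of these 10. Of the 20607 genes in the table, 7 carry such a name, namely PRDX2, PRDX3, PRDX4, PRDX6, SOD1, CAT and TXNRD1. The names PRDX1, PRDX5 and SOD2 head no row, and rows without a name that are annotated to the same enzymes are described separately.

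Superoxide dismutases turn superoxide into hydrogen peroxide, which catalase and the peroxiredoxins then reduce. Peroxiredoxins use a reactive cysteine for this, and the typical ones are returned to the reduced state by thioredoxin, which thioredoxin reductase recharges with NADPH. Red blood cells carry hemoglobin and oxygen and depend on these enzymes, with PRDX2, CAT and SOD1 among their abundant proteins, while neutrophils and other leukocytes make superoxide on purpose to kill microbes.

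The study compared 3 reproductive stages of yak cows (Bos grunniens), named Y-A in anestrus, Y-E in estrus and Y-P in pregnancy, with 6 whole blood libraries in each. The 6 cows were 4 to 8 years old and in the second year of calving, their estrus was synchronised with a progesterone pessary, cloprostenol (a prostaglandin analogue) and gonadotropin-releasing hormone, and they were inseminated at a fixed time. Neither the day of pregnancy nor the time of the anestrus sample relative to the hormones is given in the sources used here. Blood went from EDTA tubes into TRIzol LS, polyadenylated RNA was sequenced, and no step removed red cells or hemoglobin RNA, so that each value is a mean over all blood cells. In such bulk samples, fewer cells of a type and less RNA per cell cannot be told apart.

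Total counts ranged from 30247267 to 48401076 per library. In Y-A, 3.10% to 16.7% of them fell on the 6 hemoglobin complex genes, in Y-E 0.0899% to 8.36% and in Y-P 0.0272% to 0.376%. Y-E replicate 6 stood apart from its stage with 8.36%, since the other 5 Y-E libraries held 0.713% at most and its share lay within the range of Y-A. The study's sequencing summary, as read here, does not list this library, and its co-expression network was built on fewer libraries than the deposited table holds, without naming what was left out. The library was kept in the reported fit, and values without it stand beside the results it touched most. Markers of red cells, neutrophils, monocytes, T cells, B cells, platelets and eosinophils were all detected. The platelet gene GP1BB alone stayed at 3 counts or fewer in every library.

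Compared per length, as FPKM (fragments scaled by exon length and by the size of the library), PRDX2 was the most abundant of the 7 genes, with a median of 82.1 over the 18 libraries and a range of 43.8 to 313. PRDX2 lay above CAT, the next of the 7 genes, in 17 of 18 libraries. Of the rows without a name described below, ENSBGRG00000026571 and ENSBGRG00000002832 had higher median FPKM than PRDX2, 139.8 and 123.7. ENSBGRG00000026681 had a lower one, 54.3. CAT, PRDX6 and SOD1 formed a middle group with median FPKM of 52.6, 49.1 and 43.3. Their order was not stable, because CAT exceeded PRDX6 in 9 of 18 libraries and PRDX6 exceeded SOD1 in 11 of 18. PRDX3 followed with a median FPKM of 37.4 and lay below SOD1 in 12 of 18 libraries. TXNRD1 had a median FPKM of 29.6 and lay below PRDX3 in 17 of 18. By FPKM, PRDX4 was the least abundant of the 7 genes in all 18 libraries, with a median of 6.57 and a range of 4.94 to 10.8. This rank depends on the scaling by exon length. In CPM (counts scaled by library size but not by length), the medians over the 18 libraries were 37.7 for PRDX4 and 44.7 for SOD1. There PRDX4 lay above SOD1 in Y-E replicate 6 (45.9 and 28.4 CPM) and below it in Y-A replicate 4 (30.7 and 68.4 CPM).

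Stages were compared with edgeR's quasi-likelihood test on the counts, and levels of one gene across libraries are given as CPM (counts scaled to a library of fixed size after TMM normalization, mean ± SD, n = 6). All 7 genes were among the 14508 that passed the filter on low counts. In Y-E vs. Y-A none of the 7 passed an adjusted p of 0.05 (edgeR, Benjamini-Hochberg), in a comparison where 0.0207% of all tested genes did, and a fit with the library number as a block called 14 genes and again none of the 7. In Y-P vs. Y-A none of the 7 passed, against 5.83% of all tested genes. In Y-P vs. Y-E none of the 7 passed, against 14.4% of all tested genes. At an unadjusted p of 0.05, edgeR gave 1 of the 7 in Y-E vs. Y-A (PRDX2), 2 in Y-P vs. Y-A (PRDX2 and PRDX4) and 1 in Y-P vs. Y-E (PRDX4), where 6.2%, 22.7% and 29.3% of all tested genes lay under that limit. When the size of the log2 fold change had to reach 1 as well, the share of all tested genes was 0.0138%, 1.43% and 2.67%, again with none of the 7. For all 7 genes the CPM ranges of the stages overlapped in every comparison, where 0.303%, 3.55% and 6.03% of all tested genes had ranges that did not. DESeq2 called none of the 7 after adjustment either and gave the same genes before it. The median log2 fold change of the 7 genes was −0.11 in Y-E vs. Y-A, 0.06 in Y-P vs. Y-A and 0.20 in Y-P vs. Y-E, beside −0.01, 0.03 and 0.04 over all tested genes.

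**Figure D1:**
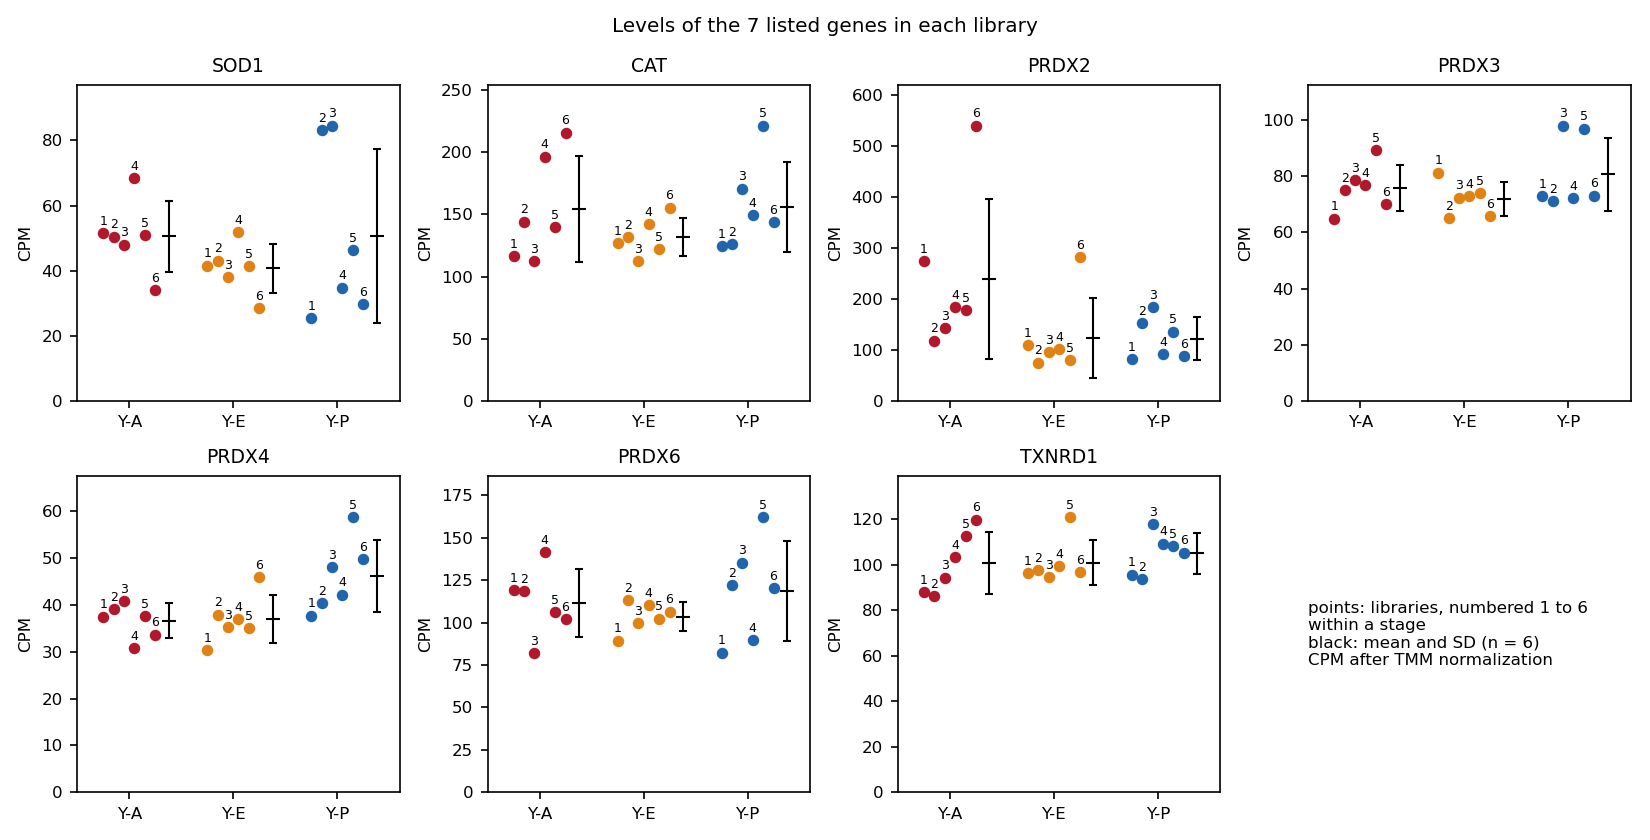
Level of each of the 7 genes (y axis, CPM after TMM normalization, from 0) in the 6 libraries each of Y-A, Y-E and Y-P, with the library number at each point and the mean and SD in black. The 3 highest PRDX2 values, 539, 281 and 274 CPM, belong to Y-A replicate 6, Y-E replicate 6 and Y-A replicate 1, and SOD1 is split within Y-P, where libraries 2 and 3 lie above 80 CPM.

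SOD1, the cytosolic copper/zinc enzyme, is encoded on chromosome 1 (ENSBGRG00000000117, 35088954 to 35098559, plus strand). Its level was 50.5 ± 10.99 CPM in Y-A (lowest 33.9, median 50.7, highest 68.4), 40.7 ± 7.58 CPM in Y-E (28.4, 41.5 and 51.8) and 50.6 ± 26.6 CPM in Y-P (25.3, 40.6 and 84.5). The ranges overlapped in every comparison, and SOD1 had the widest relative spread of the 7 genes in Y-P, with a CV of 52.6%. Its Y-P libraries fell into a pair at 83.0 and 84.5 CPM (replicates 2 and 3) and 4 between 25.3 and 46.3 CPM. In Y-E, every library lay below the Y-A library of the same number, 6 of 6, by a median of 0.31 on the log2 scale. Equal numbers are not stated to mark the same cow, and the share of all genes with 6 of 6 was not counted. The fitted difference for Y-E vs. Y-A was −0.31 (SE 0.26, 95% interval −0.86 to 0.24, edgeR adjusted p = 0.9994). For Y-P vs. Y-A it was close to 0 with a wide interval, −0.55 to 0.55 (edgeR adjusted p = 0.997). For Y-P vs. Y-E it was 0.32 (SE 0.26, −0.24 to 0.87, edgeR adjusted p = 0.467). With the library number as a block, Y-E vs. Y-A gave −0.31 (SE 0.22, edgeR adjusted p = 0.792).

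CAT, the heme enzyme that splits hydrogen peroxide, is encoded on chromosome 13 (ENSBGRG00000019772, 16491716 to 16531268, plus strand). It was measured at 154 ± 42.6 CPM in Y-A (lowest 112, median 142, highest 216), 132 ± 15.2 CPM in Y-E (112.5, 129 and 155) and 156 ± 36.2 CPM in Y-P (125, 147 and 221). The top of the range was set by a few libraries, Y-P replicate 5 at 221 CPM and Y-A replicates 6 and 4 at 216 and 196 CPM. The log2 fold change was −0.23 (SE 0.17, −0.58 to 0.12) for Y-E vs. Y-A, 0.02 (SE 0.17, −0.33 to 0.37) for Y-P vs. Y-A and 0.24 (SE 0.17, −0.11 to 0.59) for Y-P vs. Y-E. The edgeR adjusted p was 0.989, 0.966 and 0.364.

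PRDX2, the peroxiredoxin best known from red cells, showed the largest differences of the 7 genes in both comparisons with Y-A, although neither passed the adjusted threshold. It is encoded on chromosome 8 (ENSBGRG00000006234, 11521584 to 11525211, minus strand). Its level was 239 ± 156 CPM in Y-A, with 118 CPM in the lowest library, a median of 180.5 and 539 CPM in the highest. In Y-E it was 124 ± 78.2 CPM (lowest 75.0, median 98.3, highest 281), and without Y-E replicate 6 it was 92.1 ± 14.3 CPM (n = 5, highest 109). In Y-P it was 122 ± 41.7 CPM (81.4, 114 and 184). All Y-E libraries but replicate 6 thus lay below the lowest Y-A library, whereas 3 of 6 Y-P libraries did.

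For Y-E vs. Y-A the log2 fold change of PRDX2 was −0.95 (SE 0.37, 95% interval −1.73 to −0.17, edgeR adjusted p = 0.606). Each Y-E library lay below the Y-A library of the same number, 6 of 6. Equal numbers are not stated to mark the same cow, and the share of all genes with 6 of 6 was not counted. With the library number as a block the adjusted p was 0.356. Without Y-E replicate 6 the difference was −1.38 (SE 0.33, edgeR adjusted p = 0.1003), and PRDX2 was the 1 gene of the 7 whose CPM ranges no longer overlapped, as was so for 1.4% of all tested genes there, of which 0.157% passed the adjusted threshold. Without Y-A replicate 6, the library with the highest PRDX2, the difference was −0.56. Over all alternatives the adjusted p ran from 0.1003 to 0.9999.

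For Y-P vs. Y-A the log2 fold change of PRDX2 was −0.97 (SE 0.37, 95% interval −1.75 to −0.19, edgeR adjusted p = 0.126), and without Y-A replicate 6 it was −0.57. For Y-P vs. Y-E it was −0.02 (SE 0.37, −0.79 to 0.76, edgeR adjusted p = 0.984). Without Y-E replicate 6 this last difference was 0.41 (SE 0.32, −0.27 to 1.09, edgeR adjusted p = 0.449). The difference thus had no stable sign, which also turned without Y-P replicate 1, 4 or 6 and under other scalings.

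The hemoglobin share of the blood RNA was highest in the libraries with the highest PRDX2, but did not follow PRDX2 throughout. The 3 libraries with the highest PRDX2, Y-A replicate 6, Y-E replicate 6 and Y-A replicate 1, held the 3 highest hemoglobin shares, 16.7%, 8.36% and 12.1% of the counts. The 14 listed red cell markers of a list of 20 summed to 861 to 13050 CPM in Y-A, 470 to 5769 CPM in Y-E (470 to 597 CPM without replicate 6) and 338 to 436 CPM in Y-P, and none of them was at or near 0 throughout. Of the 14, 9 fell in Y-P vs. Y-A (64.3%), 7 in Y-P vs. Y-E (50%) and 0 in Y-E vs. Y-A (edgeR). Among all tested genes 5.83%, 14.4% and 0.0207% passed there. When Y-E replicate 6 was left out, these counts were 10, 2 and 4. In that fit the 2 in Y-P vs. Y-E were 14.3% of the tested markers, near the 13.7% of all tested genes. In Y-E vs. Y-A the shares were 28.6% and 0.157%. The 4 in Y-E vs. Y-A were the hemoglobin gene HBM, the heme synthesis gene ALAS2, SLC25A39 and the erythroid transcription factor gene KLF1. In pregnancy the highest values of PRDX2 and hemoglobin were in different libraries. Y-P replicate 3 had the highest PRDX2 of its stage, 184 CPM, with 0.0313% hemoglobin, and Y-P replicate 6 had the highest share, 0.376%, with 87.6 CPM. The part of red cell RNA in the PRDX2 differences was not tested.

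**Figure D2:**
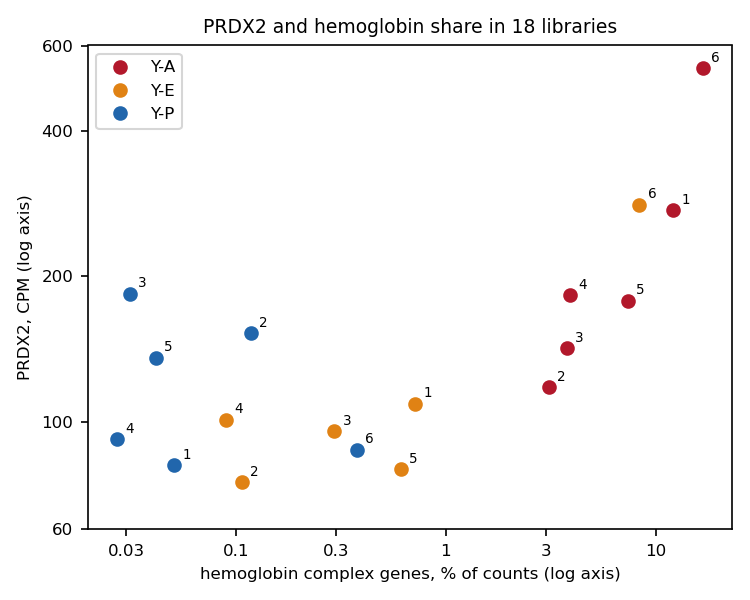
PRDX2 level (y axis, CPM after TMM normalization, log axis) against the share of counts in the 6 hemoglobin complex genes (x axis, percent, log axis) for the 18 libraries, colored by stage and labelled with the library number. The 3 libraries above 8% hemoglobin are the 3 with the highest PRDX2, while the 6 Y-P libraries span 81.4 to 184 CPM at shares under 0.4%.

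PRDX3, the mitochondrial peroxiredoxin, is encoded on chromosome 25 (ENSBGRG00000020425, 42719793 to 42732471, minus strand). It was measured at 75.7 ± 8.28 CPM in Y-A (lowest 64.8, median 75.8, highest 89.3), 71.9 ± 5.997 CPM in Y-E (65.0, 72.7 and 81.3) and 80.7 ± 13.0 CPM in Y-P (71.2, 73.0 and 97.9). The Y-P mean was raised by replicates 3 and 5, at 97.9 and 96.9 CPM, above every other library, and the other 4 Y-P libraries lay between 71.2 and 73.0 CPM. The log2 fold change was −0.08 (SE 0.11, −0.30 to 0.15) for Y-E vs. Y-A, 0.09 (SE 0.11, −0.13 to 0.32) for Y-P vs. Y-A and 0.17 (SE 0.11, −0.06 to 0.39) for Y-P vs. Y-E. The edgeR adjusted p was 0.9994, 0.662 and 0.327.

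PRDX4, the peroxiredoxin of the endoplasmic reticulum, is encoded on the X chromosome (ENSBGRG00000008322, 130939888 to 130958831, minus strand). Its levels were 36.6 ± 3.71 CPM in Y-A (lowest 30.7, median 37.5, highest 40.8), 36.9 ± 5.14 CPM in Y-E (30.3, 36.1 and 45.9) and 46.1 ± 7.65 CPM in Y-P (37.6, 45.1 and 58.6). Of the 6 Y-P libraries, 4 lay above the highest Y-A library, 3 above the highest Y-E library and 6 above the median of either stage.

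The log2 fold change of PRDX4 was 0.33 (SE 0.12, 95% interval 0.08 to 0.59, edgeR adjusted p = 0.106) for Y-P vs. Y-A and 0.32 (SE 0.12, 0.07 to 0.57, edgeR adjusted p = 0.0814) for Y-P vs. Y-E. These comparisons share the Y-P libraries. With the library number as a block the adjusted p was 0.0986 and 0.0755 (edgeR). Each Y-P library lay above the library of the same number in Y-A and in Y-E, 6 of 6. Whether equal numbers mark the same cow is not stated, and the share of all genes with 6 of 6 was not counted. In Y-E vs. Y-A the difference was 0.01 (SE 0.12, −0.24 to 0.27, edgeR adjusted p = 0.9994). Without Y-E replicate 6, which held the highest Y-E value of 45.9 CPM, Y-P vs. Y-E gave 0.39 (SE 0.12, edgeR adjusted p = 0.0360) and 5 of 6 Y-P libraries lay above the highest of Y-E. The call was also made without Y-P replicate 1, and over the fits that left out 1 library the adjusted p ran from 0.0360 to 0.200 in Y-P vs. Y-E and from 0.0602 to 0.230 in Y-P vs. Y-A. With library size as the only scaling, PRDX4 passed in both comparisons (log2 fold change 0.49 and 0.46, edgeR adjusted p = 0.0245 and 0.0186), while the median of all tested genes moved to 0.19 and 0.18.

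PRDX6, the peroxiredoxin that also acts on phospholipids, is encoded on chromosome 14 (ENSBGRG00000021918, 53514281 to 53526352, plus strand). An unnamed row, ENSBGRG00000021790, overlaps it on the minus strand with 0 to 86 counts, and whether the counting used the strand is not given in the sources used here. PRDX6 was measured at 111.5 ± 20.0 CPM in Y-A (lowest 81.9, median 112, highest 141.5), 103 ± 8.51 CPM in Y-E (89.3, 104 and 113) and 119 ± 29.5 CPM in Y-P (82.2, 121 and 162). The lowest Y-P library lay below all of Y-E and 4 lay above all of it. The log2 fold change was −0.11 (SE 0.15, −0.42 to 0.20) for Y-E vs. Y-A, 0.09 (SE 0.15, −0.22 to 0.40) for Y-P vs. Y-A and 0.20 (SE 0.15, −0.12 to 0.51) for Y-P vs. Y-E. The edgeR adjusted p was 0.9994, 0.775 and 0.414.

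TXNRD1, the cytosolic selenoenzyme that reduces thioredoxin, is encoded on chromosome 5 (ENSBGRG00000019412, 37037286 to 37110221, minus strand) and was the steadiest of the 7 genes, with a CV of 10.3% over the 18 libraries. It was measured at 100.8 ± 13.6 CPM in Y-A (lowest 86.3, median 98.9, highest 119.9), 100.9 ± 9.90 CPM in Y-E (94.6, 97.2 and 121) and 105 ± 9.09 CPM in Y-P (93.6, 107 and 118). The 95% interval of the log2 fold change was −0.21 to 0.21 for Y-E vs. Y-A, −0.15 to 0.27 for Y-P vs. Y-A and −0.15 to 0.26 for Y-P vs. Y-E. As folds, these intervals lie between 0.868 and 1.20, and the edgeR adjusted p was 0.9994, 0.7755 and 0.755.

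**Figure D3:**
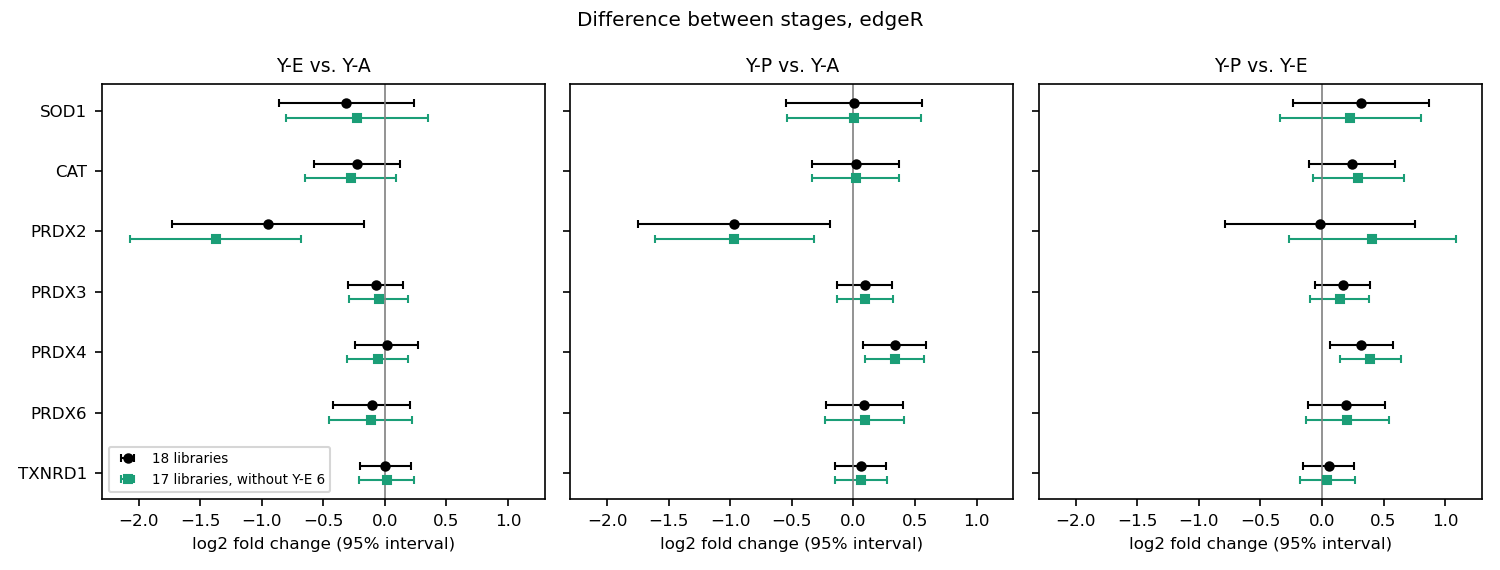
Log2 fold change (x axis) with its 95% interval for the 7 genes in the 3 comparisons, from edgeR with all 18 libraries (black circles) and with 17 libraries, without Y-E replicate 6 (green squares). The intervals of PRDX2 lie below 0 in both comparisons with Y-A and those of PRDX4 lie above 0 in both comparisons of Y-P, although none of the 21 differences with all 18 libraries passed the adjusted threshold.

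PRDX2, SOD1 and PRDX6 had their highest Y-P values in the same 3 libraries, with PRDX6 in a different order. Replicates 2, 3 and 5 held the highest 3 Y-P values of PRDX2 (152, 184 and 136 CPM), SOD1 (83.0, 84.5 and 46.3 CPM) and PRDX6 (122, 135 and 162 CPM). For PRDX6 the margin was small, since replicate 6 held 120 CPM. Replicates 2, 3 and 5 also had the largest totals of their stage, 40359672, 43123723 and 48401076 counts. The pattern did not hold for the other members. Replicate 2 was the lowest Y-P library for PRDX3 (71.2 CPM) and TXNRD1 (93.6 CPM). For CAT (126 CPM) and PRDX4 (40.4 CPM) it lay above replicate 1 alone. The part of depth in these values was not tested.

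For each gene, up to 3 of the other named genes whose log2 CPM had the highest Pearson correlation with it over the 18 libraries are given as a description. The libraries share 3 stages, their depth and their cell makeup, so these values describe likeness of pattern only. PRDX2 was most like UROD (r = 0.947), a heme synthesis enzyme, then HAGH (0.915). SOD1 was most like the ribosomal protein genes RPS24 (0.952) and RPS26 (0.946) and the ATP synthase subunit gene ATP5MC3 (0.944). CAT was most like TRIM13 (0.901), PAK1IP1 (0.81) and RALA (0.808), and PRDX3 like BLOC1S2 (0.888), PCNP (0.886) and HNRNPK (0.866). PRDX4 was most like the replication clamp gene PCNA (0.82), MPLKIP (0.811) and ELP4 (0.81), and with the stage means removed these values were 0.693, 0.654 and 0.715. PRDX6 was most like DGAT2L6 (0.88), DNAJA3 (0.833) and TAF3 (0.825). For TXNRD1 the values were 0.753 with DCSTAMP and 0.718 with GPRIN3.

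The enzymes whose names head no row were approached through the annotation columns, after the table had been seen. There, 5 rows without a gene name carry the enzyme class or function of a peroxiredoxin or superoxide dismutase. ENSBGRG00000002832 on chromosome 3 (109555852 to 109568493, plus strand) is described as peroxiredoxin 1. ENSBGRG00000026571 on chromosome 10 (104644754 to 104654984, plus strand) is placed in KEGG orthology group K04564, the iron/manganese superoxide dismutases to which mitochondrial SOD2 belongs. ENSBGRG00000026681 on chromosome 29 (9787592 to 9790507, minus strand) is placed in group K11187, that of peroxiredoxin 5, but is typed as a pseudogene. For such a row, reads of a near-identical copy could have been split or dropped, so its level is uncertain. The other 2 rows held 0 counts in 16 and 17 of 18 libraries and 12 counts at most.

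The row described as peroxiredoxin 1 was measured at 144 ± 21.1 CPM in Y-A (lowest 101.5, median 151, highest 158), 145.5 ± 6.33 CPM in Y-E (134, 147 and 152) and 172 ± 55.3 CPM in Y-P (119, 159 and 263). In Y-P, 3 libraries lay above all of Y-E and 3 below it, the upper ones being replicates 2, 3 and 5 at 198, 263 and 187 CPM. It passed in no comparison, with a log2 fold change of 0.24 (SE 0.16, −0.10 to 0.58, edgeR adjusted p = 0.361) for Y-P vs. Y-E. The genes most like it were RPL18 (r = 0.941), RPS10 (0.938) and RNASEH2C (0.918).

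The superoxide dismutase row ENSBGRG00000026571 fell in pregnancy relative to estrus. It was measured at 245 ± 51.6 CPM in Y-A (lowest 155, median 250.0, highest 307), 315 ± 82.2 CPM in Y-E (180, 319.5 and 427) and 200.1 ± 43.6 CPM in Y-P (141, 203 and 249). The ranges overlapped because Y-E replicate 4 held 180 CPM, and every Y-P library lay below the Y-E median. The log2 fold change for Y-P vs. Y-E was −0.65 (SE 0.19, 95% interval −1.06 to −0.25, edgeR adjusted p = 0.0284). The call was lost with library size as the only scaling (−0.50, adjusted p = 0.0563) and when Y-E replicate 2, 3 or 5 or Y-P replicate 2 or 4 was left out. Over the fits that left out 1 library the adjusted p ran from 0.00651 to 0.0789. With the library number as a block it was 0.00972 (edgeR), though equal numbers are not stated to mark the same cow. For Y-E vs. Y-A the difference was 0.36 (SE 0.19, −0.04 to 0.76, edgeR adjusted p = 0.853). The genes most like it were IGSF6 (r = 0.925), TBXAS1 (0.917) and PLCD1 (0.9).

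The pseudogene row of the peroxiredoxin 5 group, ENSBGRG00000026681, also fell in pregnancy relative to estrus. It was measured at 46.2 ± 12.7 CPM in Y-A (lowest 32.6, median 41.6, highest 65.3), 64.6 ± 21.4 CPM in Y-E (34.3, 61.9 and 98.8) and 37.0 ± 9.92 CPM in Y-P (22.8, 40.0 and 47.3). The log2 fold change for Y-P vs. Y-E was −0.81 (SE 0.23, 95% interval −1.29 to −0.32, edgeR adjusted p = 0.0263). Without Y-E replicate 6, the lowest of its stage, it was −0.94 (SE 0.22, edgeR adjusted p = 0.00877) and the ranges did not overlap, as was so for 7.97% of all tested genes in that fit. The call was lost without Y-E replicate 3 or 5 or Y-P replicate 4 or 6, with an adjusted p between 0.00877 and 0.0769 over the fits that left out 1 library. With the library number as a block the adjusted p was 0.00464 (edgeR). The genes most like it were the neutrophil genes S100A9 (r = 0.956) and S100A12 (0.925), and UPP1 (0.943).

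Markers of other blood cells moved in the same comparison. The 10 listed neutrophil markers of a list of 16 summed to 6443 to 10990 CPM in Y-A, 8048 to 14360 CPM in Y-E and 4507 to 7374 CPM in Y-P, and 6 of the 10 fell in Y-P vs. Y-E (edgeR). With Y-E replicate 6 left out, 7 fell in that comparison and 2, MGAM and MMP9, rose in Y-E vs. Y-A, where 0 passed with it. The 11 listed monocyte markers of a list of 13 summed to 1415 to 2707 CPM in Y-E and 957 to 1991 CPM in Y-P, and 5 fell. The 10 listed T cell markers of a list of 14 summed to 1744 to 2127 CPM in Y-E and 2204 to 3288 CPM in Y-P, and 7 rose, or 6 without Y-E replicate 6. None of these markers was at or near 0 in all libraries. Of 6 tested platelet markers 4 fell in Y-P vs. Y-E and in Y-P vs. Y-A, and of 10 B cell and 3 eosinophil markers none passed in any comparison (edgeR). Over all tested genes, 14.4% passed in Y-P vs. Y-E, or 13.7% without Y-E replicate 6, and 5.83% passed in Y-P vs. Y-A. Without that replicate 0.157% passed in Y-E vs. Y-A. The part of cell makeup in the differences of both unnamed rows was not tested.

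**Figure D4:**
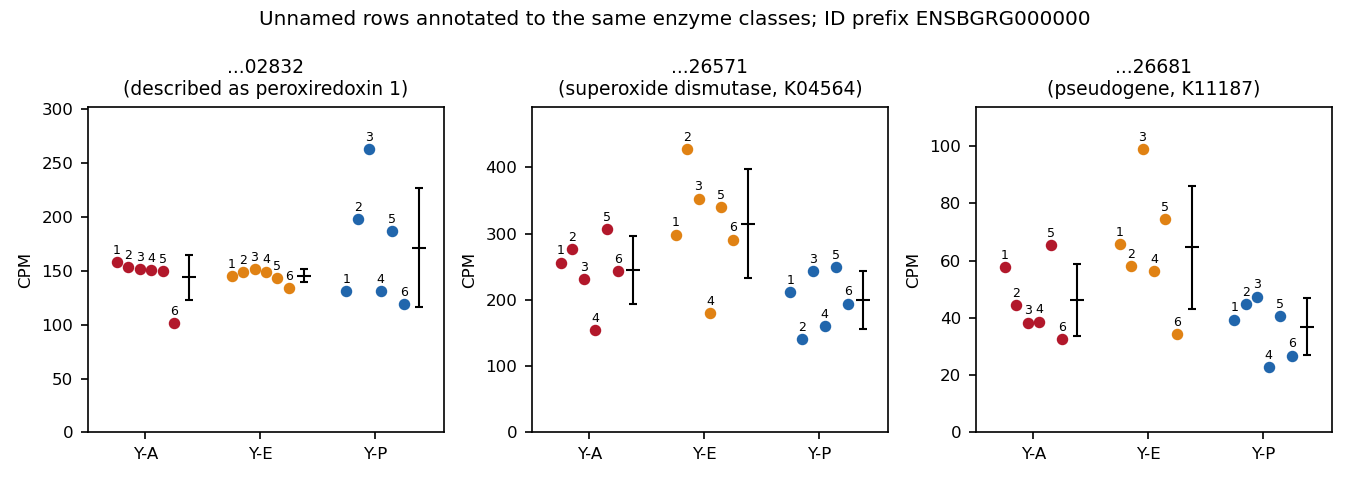
Level (y axis, CPM after TMM normalization, from 0) of the 3 tested rows without a gene name in the 6 libraries of each stage, with the library number at each point and the mean and SD in black. The superoxide dismutase row and the pseudogene row are highest in Y-E, at 315 and 64.6 CPM on average, and lowest in Y-P, at 200.1 and 37.0 CPM, and the row described as peroxiredoxin 1 is split within Y-P.

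The enzymes depend on a wider set of genes that supply thioredoxin, glutathione and NADPH or that set their expression. A list of 46 such genes was written from general knowledge, with earlier results of these data already known. Of these genes 34 were listed and 32 tested. In Y-E vs. Y-A none passed (edgeR), with 0 higher and 0 lower. In Y-P vs. Y-A 1 of 32 passed, 3.12%, against 5.83% of all tested genes. In Y-P vs. Y-E 9 of 32 passed, 28.1%, with 2 higher and 7 lower, where 14.4% of all tested genes passed, 5.77% higher and 8.68% lower. Without Y-E replicate 6, 7 of 32 passed, 21.9%, with 1 higher and 6 lower, against 13.7% of all tested genes. The median log2 fold change of the 32 genes in Y-P vs. Y-E was −0.20, against 0.04 over all tested genes.

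Among regulators and targets of the antioxidant transcription factor NRF2, 4 of 9 fell in Y-P vs. Y-E and none rose, and without Y-E replicate 6, 3 of 9 fell. Over all tested genes, 8.68% fell and 5.77% rose in that comparison. Without Y-E replicate 6, 13.7% of all tested genes passed in either direction. TKT, transketolase of the pentose phosphate pathway, was measured at 1457 ± 279.5 CPM in Y-E and 936.5 ± 188 CPM in Y-P (−0.64, SE 0.17, edgeR adjusted p = 0.0166). Its ranges nearly touched, with 1187 CPM in the lowest Y-E library and 1182 CPM in the highest Y-P library. Ranges did not overlap for 6.03% of all tested genes. BACH1, a repressor of NRF2 targets, was measured at 188 ± 40.1 and 106 ± 35.3 CPM (−0.83, SE 0.20, edgeR adjusted p = 0.0102). NFE2L2, the gene of NRF2 itself, was measured at 267 ± 52.9 and 181 ± 39.3 CPM (−0.56, SE 0.17, edgeR adjusted p = 0.0329). The NFE2L2 call was lost without Y-E replicate 6 (adjusted p = 0.0553) and without Y-E replicate 2 or 5 or Y-P replicate 2, 3 or 4, and over the fits that left out 1 library the adjusted p ran from 0.0174 to 0.0863.

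In the other groups 1 or 2 genes passed in Y-P vs. Y-E. These were 22.2% of the glutathione and glutaredoxin group, 40% of the dismutase partner and methionine repair group and 11.1% of the thioredoxin group. Among all tested genes 14.4% passed there. Of 9 genes of the glutathione and glutaredoxin group, GPX3, a secreted glutathione peroxidase, fell in Y-P vs. Y-E from 9.20 ± 3.10 to 4.84 ± 1.41 CPM (−0.93, SE 0.28, edgeR adjusted p = 0.0351). Its ranges did not overlap but nearly touched, with 6.59 CPM in the lowest Y-E library and 6.52 CPM in the highest Y-P library. Ranges did not overlap for 6.03% of all tested genes. GLRX5, a mitochondrial glutaredoxin of iron-sulfur cluster assembly named after its values were seen, rose from 5.99 ± 0.988 to 9.05 ± 2.18 CPM (0.59, SE 0.19, edgeR adjusted p = 0.0422). Of 5 genes of the dismutase partner and methionine repair group, PARK7, a redox-sensitive chaperone, rose from 57.3 ± 6.90 to 85.1 ± 20.3 CPM (0.57, SE 0.15, edgeR adjusted p = 0.0146). MSRB1, a methionine sulfoxide reductase, fell from 157 ± 48.8 to 96.9 ± 25.2 CPM (−0.69, SE 0.18, edgeR adjusted p = 0.0164).

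Of 9 genes of the thioredoxin group, SESN2, a stress-induced sestrin, fell in both comparisons of pregnancy, which share the Y-P libraries. Its level was 30.8 ± 12.6 CPM in Y-A, 28.8 ± 5.42 CPM in Y-E and 17.4 ± 5.21 CPM in Y-P. The log2 fold change was −0.83 (SE 0.23, edgeR adjusted p = 0.0408) for Y-P vs. Y-A and −0.73 (SE 0.23, edgeR adjusted p = 0.0392) for Y-P vs. Y-E. The SESN2 call in Y-P vs. Y-A was lost without Y-A replicate 1 or 5, Y-E replicate 5 or Y-P replicate 1, 2, 3, 5 or 6 (adjusted p from 0.0309 to 0.0819 over the fits that left out 1 library). In Y-P vs. Y-E it was lost without Y-E replicate 1, 2, 3 or 5 or Y-P replicate 1, 3, 5 or 6 (0.0119 to 0.0808). The GPX3 call was lost without Y-E replicate 1, 3 or 5 or Y-P replicate 1, 4, 5 or 6 (0.0275 to 0.101), and the GLRX5 call, lost without Y-E replicate 6, stood in 6 of the 18 such fits (0.0214 to 0.0993). TKT, BACH1, PARK7 and MSRB1 passed in all 18. The summed neutrophil and T cell markers given above moved in the same comparison, and their part in these differences was not tested.

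**Figure D5:**
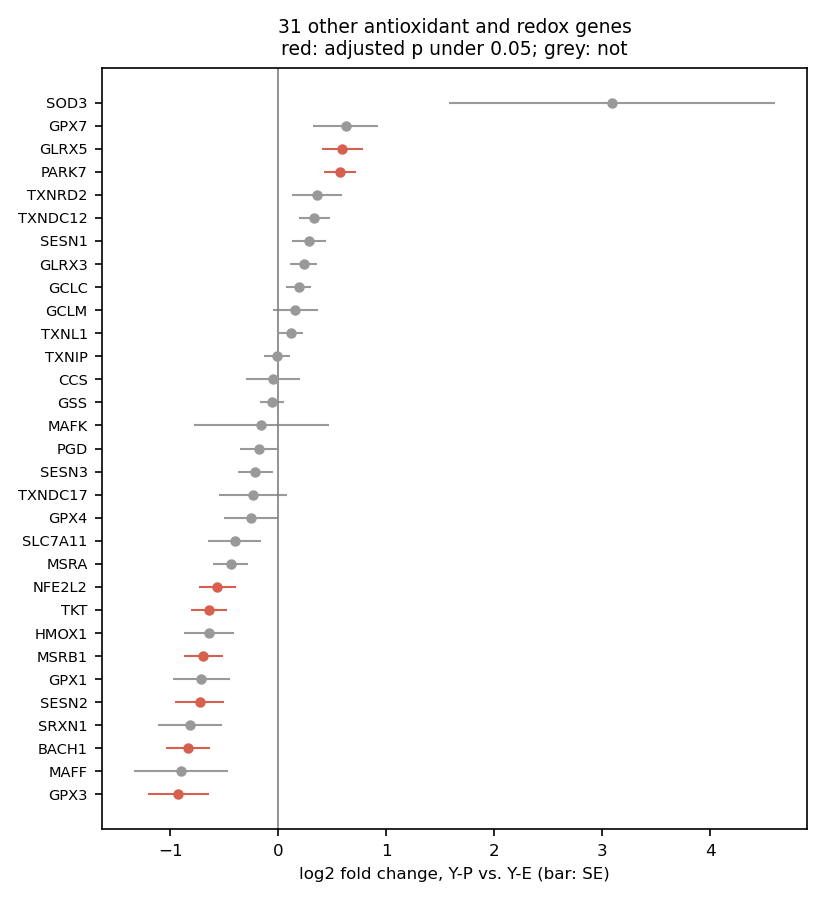
Log2 fold change of Y-P vs. Y-E (x axis, bars are the SE from edgeR) for 31 of the 32 tested genes of the wider antioxidant list, one gene per line in order of the difference, with genes at an adjusted p under 0.05 in red. There are 6 red points to the left of 0 and 2, PARK7 and GLRX5, to the right, and SOD3 has the widest bar at a mean of 0.0333 CPM in Y-E and 0.292 CPM in Y-P.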

How the data were processed

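Whole blood RNA of 18 yak libraries, 6 per stage, was analysed. The authors trimmed reads with Cutadapt 1.9, aligned them with HISAT2 2.2.1 to the Bos grunniens genome (version v101 in the study's methods, which name no assembly; the identifiers are Ensembl's) and estimated FPKM with StringTie 2.1.6 and ballgown. The deposited table holds whole-number counts, not normalized, and the authors' FPKM values per gene and library. The origin of the counts is not stated. Libraries were grouped by their labels.

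The two-sided quasi-likelihood test of edgeR 4.0.16 (R 4.3.3) was fitted to the counts of all 18 libraries by stage alone, after TMM and filterByExpr, with Benjamini-Hochberg adjustment over all 14508 genes tested. CPM values, intervals and ranges come from this fit. The study's call also required a log2 fold change of 1 or more in size. The members and gene lists were chosen with earlier results of these data known. Genes named singly were the members, up to 8 genes of the wider list with the smallest adjusted p per comparison among those under 0.05, and the 3 genes most correlated with each member. Some genes that this rule names are not reported here, while counts over the wider list include every tested gene. Alternatives were DESeq2 1.42.0, library size only, scaling without hemoglobin genes, no low-count filter, limma 3.58.1 on log2(FPKM + 1) and log2(FPKM + 0.1), only the 2 stages compared, each library left out, and the library number as a block. The scripts were tested on simulated data. The p-values rest on the spread between libraries within stages, estimated over all fitted stages together and with information shared between genes.

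Depth was 30247267 to 48401076 counts per library, and the lowest count of a member was 857 (SOD1, Y-P replicate 1), with an exact 95% Poisson interval of 801 to 916 that covers counting error only. Whether equal numbers mark the same cow is not stated: the study says that 6 cows were tracked. Deviations from the stage means correlated between libraries of equal number with r from 0.11 to 0.515 for Y-E and Y-A. For that comparison the blocked counts are therefore given, with the blocked values of PRDX2 and SOD1. The ranges were −0.0492 to 0.369 for Y-P and Y-A and −0.0544 to 0.4 for Y-P and Y-E. For these comparisons blocked values are also given for PRDX4 and for the unnamed rows that passed in Y-P vs. Y-E. The reported fit pairs no libraries.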

Additional observations from a re-analysis of the deposited data

Results flagged for a closer look

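Of 30 groups of 6 libraries, 10 tested rows in 3 stages, 4 held a library whose gap to its neighbor exceeded Dixon's 95% limit for 6 samples (0.625 of the range), where chance flags about 1 in 20. The level of PRDX2 in Y-A replicate 6 was 539 CPM, with the next library at 274 CPM. The level of PRDX2 in Y-E replicate 6 was 281 CPM, with the next at 109 CPM. These 2 libraries held 16.7% and 8.36% of their counts in hemoglobin genes, the highest share of their stages. TXNRD1 in Y-E replicate 5 was at 121 CPM, with the next at 99.5 CPM. The row described as peroxiredoxin 1, ENSBGRG00000002832, was lowest in Y-A replicate 6, at 101.5 CPM, with the next library at 149.6 CPM.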

How the results depend on the processing

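In Y-E vs. Y-A none of the 7 members passed under any alternative. The count of all genes with an adjusted p under 0.05 was 3 in the reported fit, 65 with DESeq2, 14 with the replicate block, 54 with the block without Y-E replicate 6 and 3 to 23 with 1 library left out (23 without Y-E replicate 6). With the fold limit as well, these counts were 2, 9, 11, 34 and 2 to 18. In Y-P vs. Y-A it was 846, and 1489 with DESeq2, 1331 with library size only, 2116 and 1928 with limma on log2(FPKM + 1) and log2(FPKM + 0.1), 482 with only the 2 stages compared, 1282 with the block and 386 (without Y-P replicate 2) to 1077 with 1 library left out. With the fold limit it was 208, and 128 and 343 with limma and 110 to 229 with 1 left out. Members passing were 0, and 1 with library size only and 1 in each limma fit (PRDX4). In Y-P vs. Y-E the count was 2096, with 1372 (without Y-E replicate 5) to 2305 when 1 library was left out. With the fold limit it was 387, and 143 with limma on log2(FPKM + 1) and 289 to 476 with 1 left out. Members passing were 0, and 1 with library size only and 1 with the block without Y-E replicate 6 (PRDX4), 2 in each limma fit (PRDX3 and PRDX4) and 0 to 1 with 1 left out.

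Signs turned only for differences near 0. PRDX2 in Y-P vs. Y-E was 0.13 with library size only, 0.007 without hemoglobin genes, 0.27 and 0.27 with limma, 0.22 with the block, 0.34 with the block without Y-E replicate 6 and −0.17 to 0.41 with 1 library left out. SOD1 in Y-P vs. Y-A was −0.009 with only the 2 stages, −0.076 with either block and −0.20 to 0.14 with 1 left out. CAT there was −0.002 with only the 2 stages and −0.11 to 0.11 with 1 left out, and PRDX6 −0.02 to 0.18. In Y-E vs. Y-A, PRDX4 was −0.011 without hemoglobin genes, −0.058 with the block without Y-E replicate 6 and −0.06 to 0.052 with 1 left out. TXNRD1 was −0.023 without hemoglobin genes and −0.056 to 0.042 with 1 left out, and ENSBGRG00000002832 was −0.01, −0.046 with the block without Y-E replicate 6 and −0.081 to 0.037. The causes were not tested.

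The replicate block called no member in any comparison. Libraries correlated best with their own number in 6 of 6 cases for Y-E and Y-A and in 4 of 6 for either comparison of Y-P. Limma, on FPKM, lost the calls of ENSBGRG00000026571, NFE2L2, GPX3, SESN2 and TKT in Y-P vs. Y-E, and library size only lost the first 4 of these. There the block without Y-E replicate 6 lost GPX3, SESN2 and GLRX5 (adjusted p = 0.0582, 0.0552 and 0.126), and the fit with no low-count filter lost SESN2 and GLRX5 (0.05035 and 0.0629). The SESN2 call in Y-P vs. Y-A was lost in both limma fits, with library size only, no low-count filter, only the 2 stages and the block without Y-E replicate 6 (0.0522 to 0.0745).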
